A study of Mus musculus with 12 samples.

Results

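Btg2, Gadd45b, Gadd45g, Sertad1, Tiparp, Ier2, Ier3, Ier5, Klf10 and Klf4 are genes that cells switch on quickly after growth signals, stress or, in neurons, activity, and many of their products slow cell division or temper stress signalling. They were chosen by name, with earlier results of these data known. Every probe set whose annotation gives exactly 1 of these symbols was taken. This gave 18 probe sets for the 10 genes, among 22690 on the array. Expression was measured in the striatum of female littermate mice aged 10 to 15 weeks on 12 Affymetrix arrays, 3 in each of 4 groups. The groups were cocaine-treated mutants, saline-treated mutants, cocaine-treated controls and saline-treated controls. Cocaine was given intraperitoneally at 25 mg/kg, all animals were killed 1 hour after injection, and by its title the series asks what the serum response factor (SRF) contributes to activity-driven transcription. All mice were littermates that were caged singly and handled for 5 days. The sample labels say only mutant or control; the change made to Srf, the cells that carry it and any promoter driving it are not given in them. Groups follow the sample titles, whereas the description field contradicts them for most samples and the treatment text names cocaine for all.

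Immediate early genes are transcribed without new protein synthesis, when kinases that respond to calcium, cAMP and growth factors act on transcription factors already bound to their promoters. SRF is one of these factors and binds the CArG box, and CREB, which binds the cAMP response element, is another. Btg2 belongs to the BTG/Tob antiproliferative family and recruits the CCR4-NOT deadenylase, which shortens mRNA tails. Gadd45b and Gadd45g bind the kinase MAP3K4 upstream of p38 and JNK, and Gadd45b has been linked in mouse neurons to activity-dependent DNA demethylation. Sertad1 binds the cell cycle kinase CDK4. Tiparp is a mono-ADP-ribosyltransferase that is both a target and a repressor of the aryl hydrocarbon receptor AhR. Ier3 acts in apoptosis and NF-kappa-B signalling, Ier5 is a cofactor of the heat shock factor HSF1, Klf10 is a zinc finger factor induced by TGF-beta, and Klf4 is a zinc finger factor that restrains the cell cycle.

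Because the mice differ in SRF, the promoters of the genes were searched for the sites of SRF, CREB and AhR, and for some other motifs. RefSeq windows (build GRCm38.p6), from 250 bases before to 50 after the gene start, were held for 8 of the 10 genes, all but Ier2 and Klf10. The motifs, on both strands, were the CArG box, the cAMP response element TGACGTCA and its core TGACG, the AP-1 site TGANTCA, the AhR core GCGTG, the EGR site GCGTGGGCG, which contains that core, and the TATA box TATAAA. The 250 bases before the start are shown for Btg2, whose mean cocaine response was smaller in mutants. Klf10 and Ier5 also had smaller mean responses in mutants and are not shown. Beside Btg2 stand 3 genes whose mean response was larger in mutants (Gadd45b, Tiparp and Ier3). Gadd45g, Sertad1 and the untested Klf4 also had larger mean responses in mutants and are not shown. No tested probe set of the 10 genes had a difference in response with an adjusted p under 0.05 (limma). Motif letters are in capitals (GCGTG on the opposite strand reads CACGC).
Btg2, chr1:134079156-134079405, minus strand: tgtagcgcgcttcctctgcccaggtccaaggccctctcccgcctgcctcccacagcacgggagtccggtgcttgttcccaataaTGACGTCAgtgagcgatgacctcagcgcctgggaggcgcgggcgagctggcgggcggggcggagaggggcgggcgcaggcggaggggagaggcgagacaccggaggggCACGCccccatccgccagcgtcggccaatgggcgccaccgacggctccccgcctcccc
Gadd45b, chr10:80929841-80930090, plus strand: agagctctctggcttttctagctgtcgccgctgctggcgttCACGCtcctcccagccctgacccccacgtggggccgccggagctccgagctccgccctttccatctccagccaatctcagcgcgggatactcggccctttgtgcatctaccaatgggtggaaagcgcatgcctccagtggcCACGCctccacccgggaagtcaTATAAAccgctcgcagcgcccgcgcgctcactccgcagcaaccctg
Tiparp, chr3:65528197-65528446, plus strand: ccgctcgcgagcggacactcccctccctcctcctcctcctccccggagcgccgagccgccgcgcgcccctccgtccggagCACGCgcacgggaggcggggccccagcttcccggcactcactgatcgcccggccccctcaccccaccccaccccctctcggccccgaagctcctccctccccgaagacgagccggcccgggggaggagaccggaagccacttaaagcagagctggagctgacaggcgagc
Ier3, chr17:35821463-35821712, plus strand: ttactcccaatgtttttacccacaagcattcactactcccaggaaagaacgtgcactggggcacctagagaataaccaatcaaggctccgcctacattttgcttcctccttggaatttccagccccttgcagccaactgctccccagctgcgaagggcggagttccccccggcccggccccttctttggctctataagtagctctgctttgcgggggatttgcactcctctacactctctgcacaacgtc

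The CArG box was found in 0 of the 8 windows, and in 1.63% of all 32851 promoter windows. The full element TGACGTCA stood in the Btg2 window alone among the 8, at -166 to -159 from the start, and in 1.79% of all windows. Its core TGACG also stood in the Klf4 window (20.8% of all windows). GCGTG was present in the Btg2, Gadd45b, Sertad1 and Tiparp windows (32.4% of all windows) and TATAAA in those of Gadd45b and Gadd45g (13.6%). TGANTCA (7.81% of all windows) and GCGTGGGCG (0.612%) were in none of the 8. These are letter matches in short windows, and elements farther away were not searched.

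The values are the authors' GCRMA signals on a log2 scale, 1 per probe set and array, and a probe set was tested if it exceeded 4 in at least 3 of the 12 arrays; 52.6% of all values lay at or below that floor. Of the 18 probe sets, 12 passed, standing for 8 genes. Ier2 and Klf4 had no probe set that passed. Srf itself read 5.01 to 5.49 in mutants and 6.97 to 7.21 in controls on its tested probe set, without overlap. All 7 medium spiny neuron markers found on the array, such as Ppp1r1b and Penk, exceeded the floor, while the 2 cortical neuron markers found did not. Replicate 3 of the saline-treated mutants was the highest of its group in 10 of the 12 tested probe sets. Replicate 3 of the cocaine-treated controls had a summed linear signal of choroid plexus markers (Ttr, Kl and Foxj1) of 793, against 21 to 73 on the other 11 arrays. Of these 3 markers, only Ttr exceeded 4 on at least 3 arrays. In whole striatum, fewer cells of a type and less RNA per cell cannot be told apart.

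**Figure D1:**
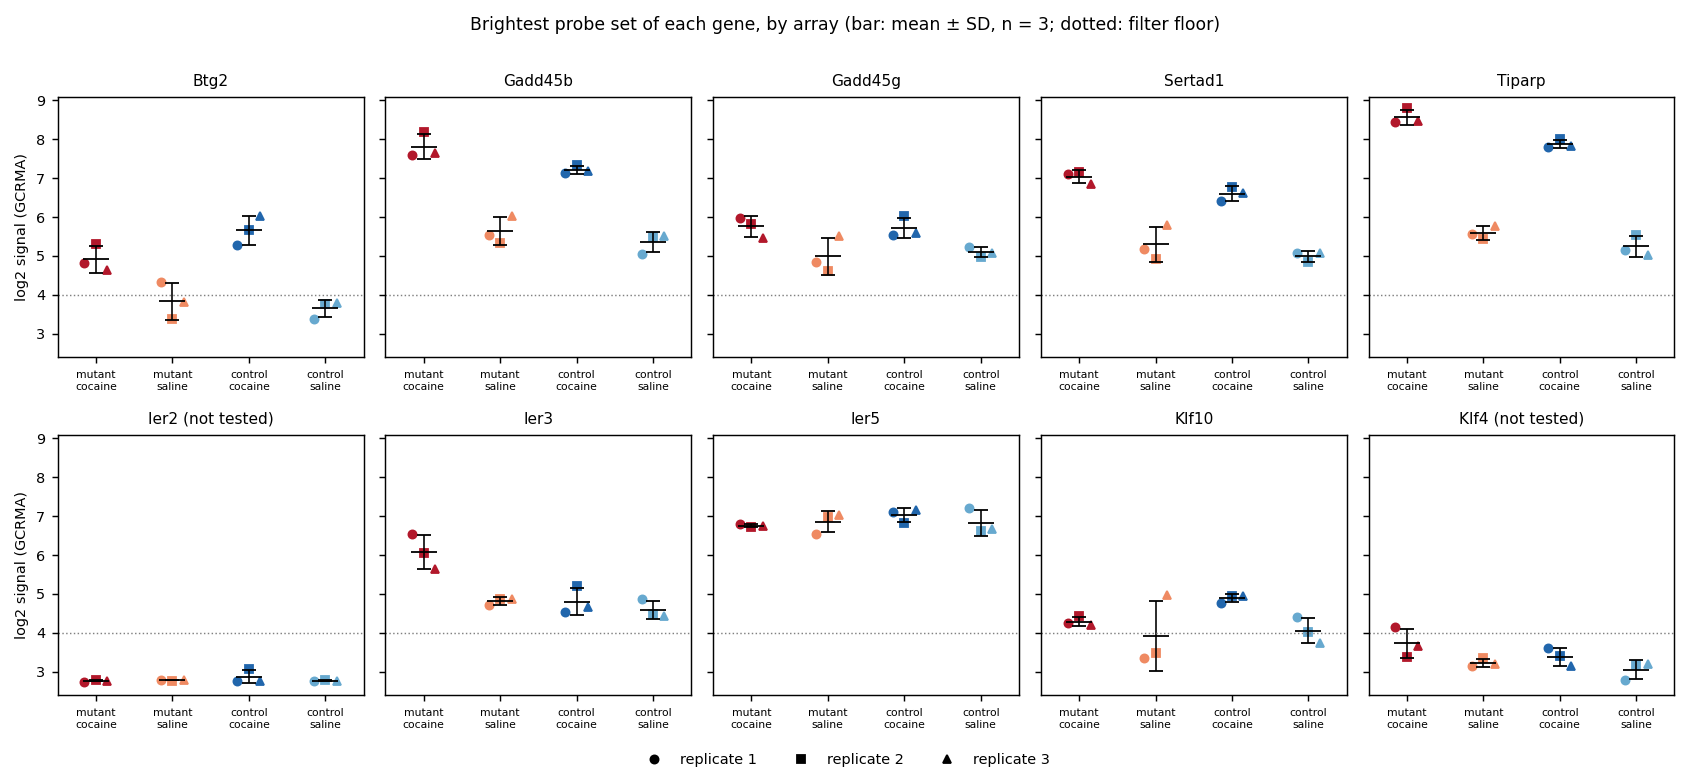
Log2 signal (y axis) of the brightest probe set of each gene on every array, by group (x axis); symbols mark replicates, bars the mean ± SD (n = 3) and the dotted line the floor of 4. Tiparp, Gadd45b, Sertad1 and Btg2 were higher on every cocaine array than on any saline array of the same genotype, and Ier3 was highest in cocaine-treated mutants (5.65 to 6.53).

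Cocaine raised 5 of the 10 genes in mutants (Tiparp, Gadd45b, Sertad1, Ier3 and Btg2) and 4 in controls (Tiparp, Btg2, Gadd45b and Sertad1). By probe set, 8 of 12 tested were called higher in mutants, where 1.76% of all 11102 probe sets were, and 7 of 12 in controls, where 0.45% were (limma, Benjamini-Hochberg adjusted p under 0.05 over all tested probe sets). None was called lower in either genotype, where 0.162% of all were in mutants and 0 in controls; at an unadjusted p under 0.05, 9 passed in mutants, where 10.7% of all 11102 did, and 9 in controls, where 6.34% did. Cocaine and saline arrays did not overlap, with cocaine higher, for 8 of the 12 in mutants (8.4% of all 11102) and 9 in controls (6.72%); a share in brackets after a count of members is that over all tested probe sets. Averaged over genotypes, 9 of 12 were called higher and 0 lower, against 2.11% and 0.207% of all. The median change of the 12 was 1.50 in mutants and 1.74 in controls, beside -0.01 and 0.00 over all tested probe sets. Btg2 1416250_at passed the filter through its cocaine arrays, and the genes were chosen with earlier results of these data known. These counts and medians therefore describe the list and do not test it.

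Tiparp, the ADP-ribosyltransferase, had the largest response of the 8 tested genes in both genotypes. Its brightest probe set, 1426721_s_at, read 8.45, 8.79 and 8.47 in cocaine-treated mutants and 5.57, 5.42 and 5.78 in saline-treated mutants. It read 7.81, 8.0 and 7.81 in cocaine-treated controls and 5.16, 5.54 and 5.03 in saline-treated controls. The cocaine and saline arrays were far apart in both genotypes, and the cocaine-treated mutants lay above the cocaine-treated controls without overlap. The log2 change was 2.98 in mutants (SE 0.140, adjusted p = 1.41e-07, limma) and 2.63 in controls (SE 0.140, adjusted p = 3.27e-07, limma). Its 2 other probe sets gave 7.79-fold (1452160_at) and 9.40-fold (1452161_at) in mutants and 5.30-fold and 4.87-fold in controls. Ranked by log2 change among all tested probe sets, the 3 stood at places 3, 4 and 2 in mutants and 8, 9 and 11 in controls.

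Gadd45b, the stress-kinase activator, followed the same course at a lower level. Probe set 1450971_at read 7.60, 8.17 and 7.63 in cocaine-treated mutants and 5.55, 5.34 and 6.04 in saline-treated mutants. In controls it read 7.13, 7.34 and 7.19 after cocaine and 5.05, 5.50 and 5.53 after saline. No cocaine array overlapped a saline array, and again every cocaine-treated mutant lay above every cocaine-treated control. The change was 4.47-fold in mutants (log2 2.16, SE 0.192, adjusted p = 3.44e-05, limma) and 3.63-fold in controls (log2 1.86, SE 0.192, adjusted p = 0.000202, limma). The dimmer 1449773_s_at gave log2 changes of 2.51 in mutants and 2.00 in controls, with saline levels averaging 4.04 and 3.91, near the floor. The call of this dimmer probe set in controls was lost without the filter on dim probe sets (adjusted p = 0.0603, limma). A further probe set, 1420197_at, stayed between 2.1 and 2.2 on all arrays.

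Gadd45g, its paralog, moved less. It read 5.98, 5.82 and 5.47 in cocaine-treated mutants and 4.85, 4.60 and 5.51 in saline-treated mutants. After cocaine the controls read 5.55, 6.03 and 5.59, and after saline 5.23, 4.97 and 5.09. The groups were apart in controls and overlapped in mutants through saline replicate 3. Neither change was called (log2 0.77 in mutants, adjusted p = 0.105, and 0.63 in controls, adjusted p = 0.498, limma). Without mutant saline replicate 3 the change in mutants was 1.03 and passed (adjusted p = 0.00924, limma). Averaged over both genotypes Gadd45g rose 1.62-fold (log2 0.70, SE 0.147, adjusted p = 0.0238, limma). That call was lost in 7 of the 12 fits that left out 1 array (mutant cocaine replicates 1 and 2, mutant saline 1 and 2, control cocaine 2, control saline 2 and 3), with changes of 0.60 to 0.70 and adjusted p of 0.0545 to 0.0766 by limma. It was also lost without the filter on dim probe sets (adjusted p = 0.134, limma).

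Sertad1, the CDK4-binding protein gene, rose about equally in both genotypes. It read 7.12, 7.16 and 6.84 in cocaine-treated mutants and 5.17, 4.93 and 5.78 in saline-treated mutants. Controls gave 6.40, 6.78 and 6.62 after cocaine and 5.07, 4.83 and 5.07 after saline. All cocaine arrays lay above all saline arrays. The change was 3.35-fold in mutants (log2 1.74, SE 0.182, adjusted p = 0.00016, limma) and 3.06-fold in controls (log2 1.61, SE 0.182, adjusted p = 0.000471, limma). The difference between these responses was 0.13 (95% interval -0.43 to 0.69).

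Btg2, the deadenylase recruiter, responded less in mutants by its mean. Probe set 1416250_at read 4.82, 5.30 and 4.63 in cocaine-treated mutants and 4.32, 3.38 and 3.82 in saline-treated mutants. It read 5.28, 5.66 and 6.02 in cocaine-treated controls and 3.39, 3.76 and 3.8 in saline-treated controls. Cocaine and saline arrays did not overlap in either genotype, while the cocaine-treated mutants and controls overlapped narrowly. The change was 2.11-fold in mutants (log2 1.08, SE 0.245, adjusted p = 0.0421, limma) and 4.01-fold in controls (log2 2.00, SE 0.245, adjusted p = 0.000925, limma). The probe set exceeded the floor on 7 arrays, which include every cocaine array, so its passing the filter is tied to its response, and most of its saline values lie under 4.

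The call of Btg2 in mutants was not stable. It was lost in 7 of the 12 fits that left out 1 array (mutant cocaine replicates 1 and 2, mutant saline 2 and 3, control cocaine 2, control saline 2 and 3), with log2 changes of 0.84 to 1.12 and adjusted p of 0.0574 to 0.169 by limma. It was also lost without the filter (adjusted p = 0.197) and with the 6 mutant arrays alone (adjusted p = 0.0994, limma). The second Btg2 probe set, 1448272_at, was too dim to be tested. It read 3.85, 3.44 and 3.70 in cocaine-treated mutants and 3.20, 2.87 and 3.20 in saline-treated mutants, against 3.86, 4.85 and 4.65 in cocaine-treated controls and 3.19, 3.20 and 3.18 in saline-treated controls. Its mean change was 0.57 in mutants and 1.26 in controls, with the same order as the brighter one.

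**Figure D2:**
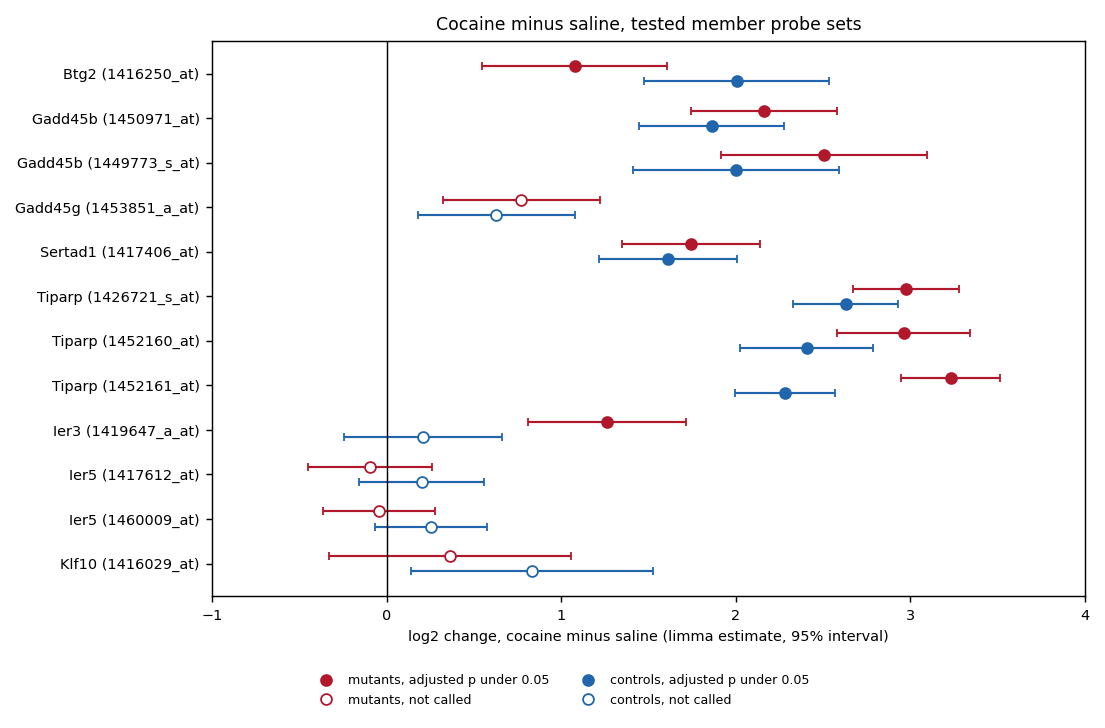
Log2 change, cocaine minus saline (x axis; limma estimate with 95% interval), for the 12 tested probe sets (y axis) in mutants (red, upper) and controls (blue, lower); filled points have an adjusted p under 0.05. The 3 Tiparp probe sets lie farthest to the right in both genotypes, and Ier3 is at 1.26 in mutants and 0.21 in controls.

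Ier3, the apoptosis regulator, was high in cocaine-treated mutants and near its saline level in the other groups. It read 6.53, 6.06 and 5.65 in cocaine-treated mutants and 4.71, 4.87 and 4.88 in saline-treated mutants. It read 4.53, 5.20 and 4.67 in cocaine-treated controls and 4.86, 4.48 and 4.43 in saline-treated controls. The 3 cocaine-treated mutants lay above the 9 other arrays, while cocaine and saline arrays of the controls overlapped. The change was 2.4-fold in mutants (log2 1.26, SE 0.209, adjusted p = 0.00533, limma) and 1.16-fold in controls (log2 0.21, SE 0.209, adjusted p = 0.961, limma). In mutants the call was held in every fit that left out 1 array and was lost without the filter on dim probe sets (adjusted p = 0.0508, limma). Averaged over both genotypes the change of 0.73 was called (adjusted p = 0.0177, limma), but not without control saline replicate 3 (0.70, adjusted p = 0.0516) or without the filter (adjusted p = 0.112, limma).

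Ier5, the HSF1 cofactor gene, was the brightest of the 3 Ier genes and did not pass the test with cocaine. Probe set 1417612_at read 6.79, 6.72 and 6.74 in cocaine-treated mutants and 6.54, 6.98 and 7.03 in saline-treated mutants. Controls read 7.11, 6.82 and 7.16 after cocaine and 7.22, 6.62 and 6.66 after saline. All groups overlapped between treatments, and the 95% intervals of the change ran from -0.45 to 0.26 in mutants and from -0.16 to 0.56 in controls, so a rise above 1.5-fold lay outside both. A dimmer tested probe set, 1460009_at, gave -0.05 in mutants and 0.25 in controls, and 1417613_at stayed between 3.12 and 3.58 without being tested. Ier2, a nuclear protein gene, was read by 1 probe set that lay between 2.75 and 3.06 on all arrays, below the floor, so no change could be measured at this signal.

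Klf10, the TGF-beta-inducible factor, depended on a single array. It read 4.24, 4.43 and 4.20 in cocaine-treated mutants and 3.35, 3.47 and 4.96 in saline-treated mutants. It read 4.77, 4.96 and 4.95 in cocaine-treated controls and 4.41, 4.02 and 3.75 in saline-treated controls. Cocaine arrays were all above saline arrays in controls, and in mutants saline replicate 3 lay above every cocaine array. With that array neither change was called (log2 0.36 in mutants, adjusted p = 0.798, and 0.83 in controls, adjusted p = 0.68, limma). Without it the change was 0.88 in mutants (adjusted p = 0.0145, limma), and the 0.83 in controls also passed (adjusted p = 0.0211, limma), with an SE of 0.141 in place of 0.320. The levels of Klf10 lie close to the floor.

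Klf4 had 2 dim probe sets and was not tested. Probe set 1417394_at read 4.14, 3.39 and 3.66 in cocaine-treated mutants and 3.15, 3.36 and 3.20 in saline-treated mutants, against 3.60, 3.41 and 3.15 in cocaine-treated controls and 2.78, 3.19 and 3.20 in saline-treated controls. The cocaine-treated mutants lay just above the saline-treated mutants. In the fit without the filter its change was 0.49 in mutants (adjusted p = 0.559) and 0.33 in controls (listed at an adjusted p of 1.00, limma). The other probe set, 1417395_at, stayed between 2.53 and 3.03.

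**Figure D3:**
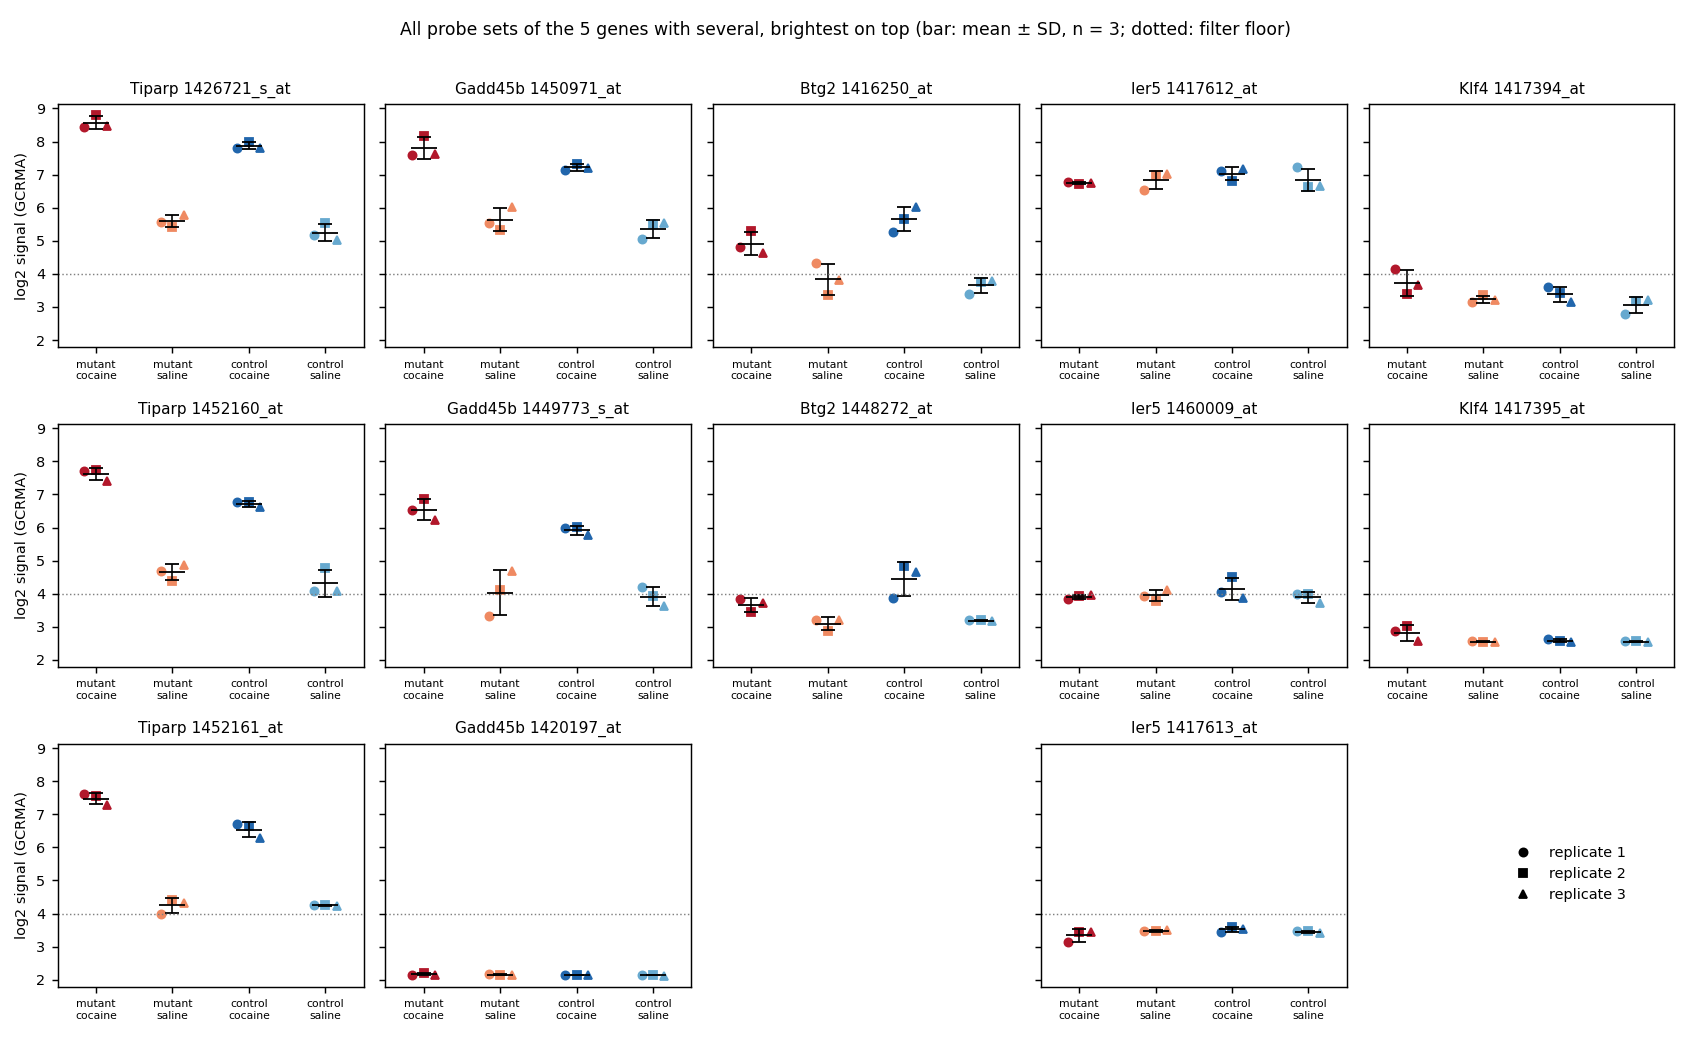
Log2 signal (y axis) by group (x axis) for every probe set of the 5 genes that have several, brightest on top; symbols mark replicates, bars the mean ± SD (n = 3) and the dotted line the floor of 4. The 3 Tiparp probe sets and the 2 brighter Gadd45b probe sets read higher in cocaine-treated mutants than in cocaine-treated controls, and both Btg2 probe sets read lower by their means.

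Whether the mutation changed the response itself was tested as the difference between the cocaine changes of mutants and controls. None of the 12 probe sets was called (limma), where 0.0721% of all tested probe sets were, and 4 had an unadjusted p under 0.05 (4.98% of all), standing for Btg2, Tiparp and Ier3. Ier3 had the largest positive difference at 1.05 (95% interval 0.41 to 1.69, unadjusted p = 0.00363, adjusted p = 0.54, limma), at place 9 of 11102 when ranked from the top. Tiparp differed by 0.95 on 1452161_at (95% interval 0.55 to 1.35, adjusted p = 0.178), by 0.56 on 1452160_at and by 0.35 on 1426721_s_at (95% interval -0.08 to 0.78, adjusted p = 1.00, limma). The first of these has saline levels of 4.24 in mutants and 4.25 in controls, near the floor. The 3 Tiparp probe sets measure 1 gene and agree in sign, with sizes that differ.

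Btg2 had the largest negative difference of the 12, -0.93 (95% interval -1.68 to -0.18, adjusted p = 0.903, limma), and its dim probe set read -0.69 without being tested. Klf10 differed by -0.47 with an interval from -1.45 to 0.51, and by 0.05 without mutant saline replicate 3. Gadd45b differed by 0.30 (95% interval -0.29 to 0.89) and Gadd45g by 0.14 (95% interval -0.49 to 0.78). Under each of the 20 alternatives tried for this comparison, the number of called probe sets was 0.

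**Figure D4:**
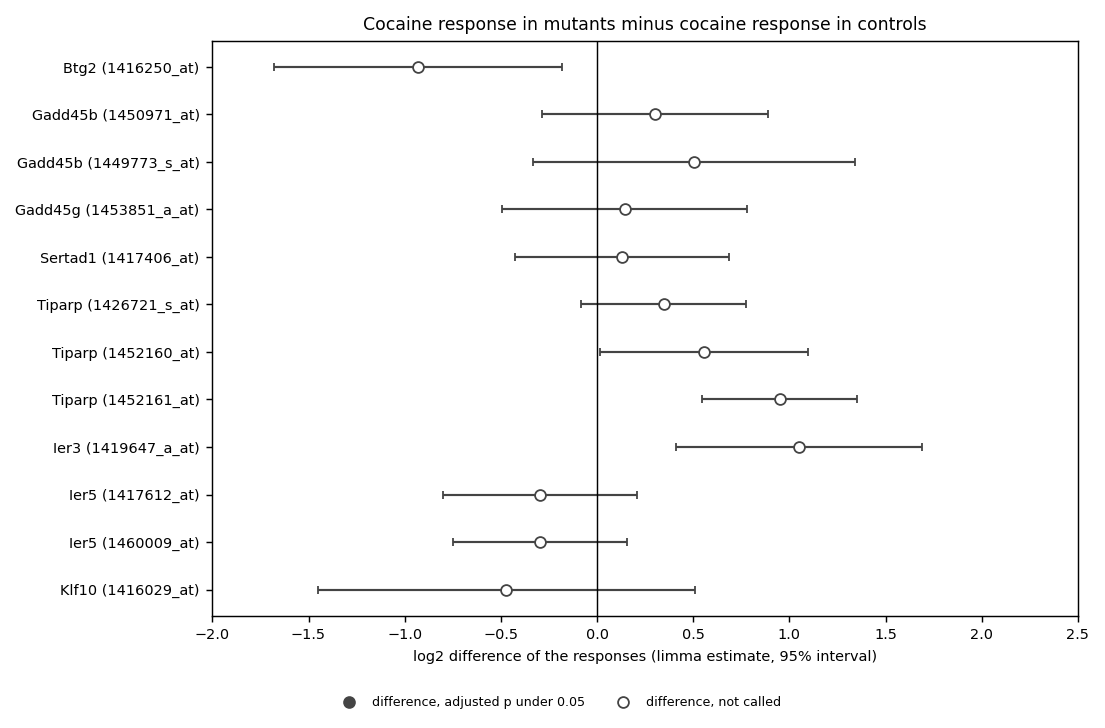
Cocaine change in mutants minus cocaine change in controls (x axis, log2; limma estimate with 95% interval) for the 12 tested probe sets (y axis); open points were not called. Ier3 (1.05) and Tiparp 1452161_at (0.95) lie to the right, Btg2 (-0.93) to the left, and no probe set has an adjusted p under 0.05.

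After saline, none of the 12 probe sets was called for mutant against control (limma), where 2.98% of all were. At that share few calls would be expected among 12. At an unadjusted p under 0.05, 1 of the 12 passed, where 15.6% of all did. It was Tiparp 1426721_s_at (0.35, 95% interval 0.04 to 0.65, adjusted p = 0.249, limma). In every one of the 12 the mutant and control saline arrays overlapped, while 9.18% of all tested probe sets were higher and 9.73% lower in mutants without overlap. The Ier3 difference was 0.23 (95% interval -0.22 to 0.68), that of Btg2 0.19 (95% interval -0.34 to 0.72) and that of Sertad1 0.31 (95% interval -0.09 to 0.70).

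After cocaine, Ier3 and Tiparp were higher in mutants. Ier3 was 2.43-fold higher (log2 1.28, SE 0.209, adjusted p = 0.00324, limma), averaging 6.08 ± 0.438 in cocaine-treated mutants and 4.80 ± 0.352 in cocaine-treated controls (log2, SD, n = 3 each). Tiparp was 1.62-fold, 1.87-fold and 1.92-fold higher on 1426721_s_at, 1452160_at and 1452161_at (adjusted p = 0.0128, 0.0112 and 0.00126, limma). In all, 4 of 12 probe sets were called higher (2.27% of all) and 0 lower (1.92% of all), and 8 had an unadjusted p under 0.05 (17.2% of all). Arrays of the 2 genotypes did not overlap after cocaine for 7 probe sets that were higher in mutants (4 genes) and 2 that were lower, against 10.7% and 13.8% of all tested probe sets. The 2 lower ones were Klf10 and Ier5 1417612_at (-0.28, adjusted p = 0.439, limma).

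The calls of Ier3 and of Tiparp 1452161_at after cocaine held in each of their 20 alternatives. That of 1426721_s_at was lost without mutant cocaine replicate 2 (0.58, adjusted p = 0.0551) and without control cocaine replicate 1 (0.66, adjusted p = 0.0544) or 3 (0.66, adjusted p = 0.0576, limma). That of 1452160_at was lost without mutant cocaine replicate 1 (0.86, adjusted p = 0.0547) and without control cocaine replicate 3 (0.85, adjusted p = 0.054, limma), the array with the choroid plexus signal; the count was then 2 of 12. Without the filter both were lost as well (adjusted p = 0.0592 and 0.0633, limma). Gadd45b (0.58, adjusted p = 0.119) and Sertad1 (0.44, adjusted p = 0.23, limma) lay above controls on every cocaine array without passing the test. Btg2 (-0.74, adjusted p = 0.121) and Klf10 (-0.60, adjusted p = 0.377, limma) read lower in mutants; Klf10 passed without mutant saline replicate 3 (adjusted p = 0.0345) and with the 6 cocaine arrays alone (adjusted p = 0.0105, limma).

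Averaged over treatments, 4 probe sets, those of Ier3 and Tiparp, were called higher in mutants (4.41% of all) and 0 lower (5.05% of all). Ier3 was 1.69-fold higher (adjusted p = 0.00614) and Tiparp 1.38-fold to 1.54-fold (adjusted p = 0.00517 to 0.00693, limma). These averages join unlike treatments, as Ier3 read 0.23 after saline and 1.28 after cocaine. Tiparp read 0.35, 0.34 and -0.01 after saline on 1426721_s_at, 1452160_at and 1452161_at, and 0.69, 0.90 and 0.94 after cocaine. Gadd45b 1450971_at read 0.43 (adjusted p = 0.064) and passed with all arrays under the stricter filter (adjusted p = 0.0415) and with the trend and robust prior (adjusted p = 0.0396, limma). It also passed without mutant saline replicate 2 (0.51, adjusted p = 0.0386, limma), as did Sertad1 (0.46, adjusted p = 0.0327). Gadd45b 1449773_s_at passed without mutant saline replicate 1 (0.55, adjusted p = 0.0351), and Klf10 as lower without mutant saline replicate 3 (-0.62, adjusted p = 0.00359, limma). The summed linear signal of the medium spiny neuron markers was also higher in mutants, at 9223 to 10179, against 8532 to 9107 in controls, with 4 of its genes called higher and 1 lower over both treatments; its part in these differences was not tested. Of 8 astrocyte markers, 1 was called higher in mutants over both treatments and after saline, and 1 was called lower with cocaine in mutants; their summed signal overlapped (3166 to 3790 in mutants and 3309 to 3766 in controls), as did that of the endothelial markers (100 to 132 in mutants and 77 to 128 in controls).

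**Figure D5:**
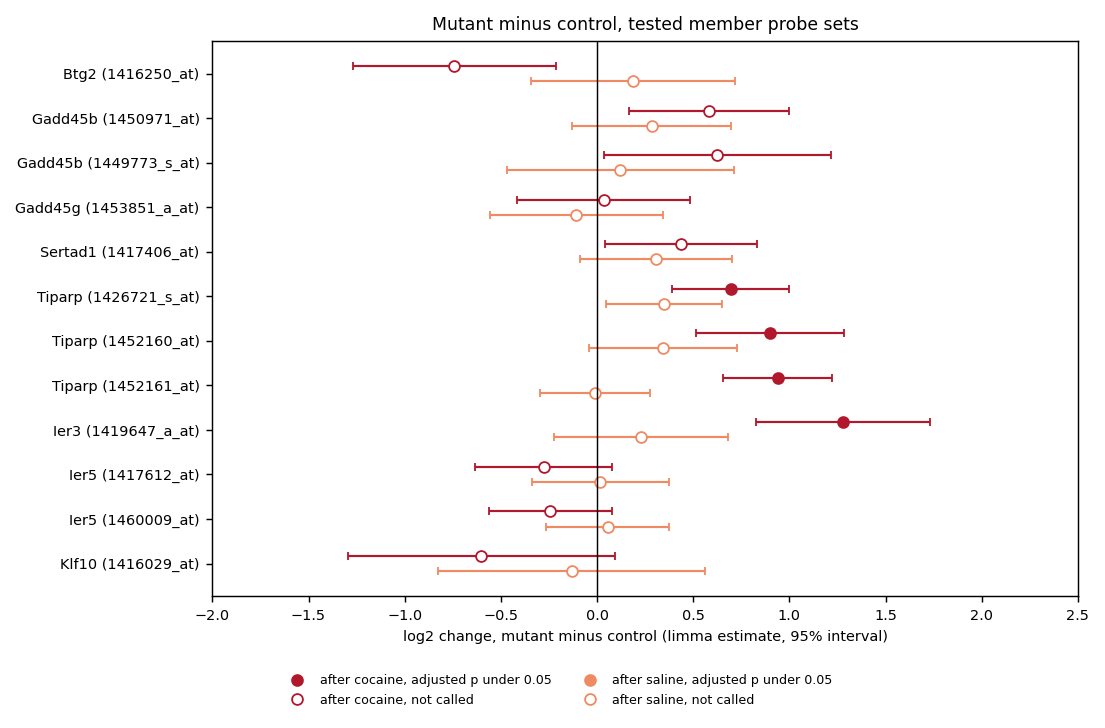
Log2 change, mutant minus control (x axis; limma estimate with 95% interval), for the 12 tested probe sets (y axis) after cocaine (red, upper) and after saline (orange, lower); filled points have an adjusted p under 0.05. Ier3 (1.28) and the 3 Tiparp probe sets (0.69 to 0.94) are filled after cocaine, and no point is filled after saline.

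Genes with the most similar course over the 12 arrays were taken as those with the smallest root mean square (RMS) difference from a gene's brightest probe set, after each was centred on its own mean. For Tiparp this was Junb, an AP-1 component (RMS difference 0.294, where the SD of Tiparp over arrays was 1.44). For Gadd45b (0.264) and Sertad1 (0.206) it was Frmd6 in both cases. Ier3 lay nearest to Dnajb1, an HSP40 chaperone gene (0.223), which read 1.26 with cocaine in mutants and 0.37 in controls. Btg2 lay nearest to the MAP kinase phosphatase gene Dusp6 (0.367), Klf10 to the EGF receptor ligand gene Hbegf (0.229), Gadd45g to Phlda1 (0.193) and Ier5 to Lmf1 (0.105). A gene that varies little gets a small RMS difference, so these values do not rank the matches between genes. The SD over arrays was 1.06 for Gadd45b, 0.887 for Sertad1, 0.869 for Btg2 and 0.640 for Ier3. It was 0.541 for Klf10, 0.431 for Gadd45g and 0.218 for Ier5. The Klf10 neighbour Hbegf read 0.31 with cocaine in mutants and 1.00 in controls.

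Relatives and partners of the 10 genes were mostly not called. Of 73 genes in 9 related lists, 44 were tested. With cocaine, 4 were called higher in mutants (Tob2, Klf5, Plk2 and Ppm1d) and 1 in controls (Plk2), and 0 were lower in either, beside 1.76% and 0.45% of all probe sets called higher. A gene was counted as called through any of its probe sets, so the gene counts and these shares are not on the same base. In the BTG/Tob list (3 tested), Tob2, a relative of Btg2, rose by 0.96 in mutants (SE 0.169, adjusted p = 0.00816, limma) and read 0.36 in controls. In the p53-responsive growth arrest list (10 tested), the kinase gene Plk2 rose by 0.55 in mutants and 0.58 in controls, and the phosphatase gene Ppm1d rose by 0.99 in mutants (SE 0.111, adjusted p = 0.000241, limma) and read 0.33 in controls. Among 6 Krüppel-like factors tested, Klf5 rose by 0.74 in mutants (adjusted p = 0.0263, limma) and read 0.39 in controls, and the bright Klf9 was called over both genotypes on 1 of its probe sets (0.29).

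None of 6 GADD45 partners, 8 CCR4-NOT and other Btg2 partners, 7 SERTAD relatives and Cdk4 partners, 2 TGF-beta early genes, the AhR gene itself and Ier3ip1 was called with cocaine in either genotype. The brightest members of 4 of these lists were Mapk9, Pabpc1, Ccnd2 and Skil. None of the 44 genes was called for a difference in response. Over both treatments, Tob2, Btg1, Klf9, Plk2 and Ppm1d were called higher in mutants (4.41% of all probe sets) and Ccnd2, Sesn1 and Zmat3 lower (5.05%). For Tob2 (adjusted p = 0.0542), Btg1 (adjusted p = 0.0905) and Klf9 (adjusted p = 0.109, limma) the brightest probe set itself was not called, and the calls came from dimmer ones. Ccnd2, which encodes cyclin D2, a partner of CDK4, was lower by -0.67 on its brightest probe set (SE 0.116, adjusted p = 0.00265, limma). Plk2 was higher by 0.53 (adjusted p = 8.61e-05, limma).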

How the data were processed

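RNA from striatum was measured on 12 Affymetrix arrays. The deposited values are log2 signals that the authors made with GCRMA and R 2.4.1, as the submitters' processing notes list them. No source used here states the log base or options, and log2 is taken from the range (array lows 1.26 to 1.29, highs 13.0 to 13.1). GCRMA had brought the arrays to a common level and compresses dim values. Groups and replicates follow the titles; the description field names controls as mutants and mutants as controls for most samples, which the Srf signals oppose. The titles call the samples biological replicates. The p-values weigh differences of group means against the spread between replicates within groups, shared over the 4 groups. The number of replicates limits the precision. Probe sets with the suffix _s_at or _x_at may match transcripts of more than 1 gene.

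After 64 control probe sets were left out, 11102 of 22690 probe sets exceeded 4 in at least 3 arrays and were tested in limma 3.58.1 (R 4.3.3) with 4 group means and eBayes (8 residual degrees of freedom, 4.71 from the prior), two-sided, with Benjamini-Hochberg adjustment over all of them. Every adjusted p is limma's, at a threshold of 0.05. Intervals are 95% intervals of the limma estimate. The fit was tested on simulated data. Untested probe sets are given from the fit without the filter. The brightest probe set is the one with the highest mean over all arrays. All probe sets of the 10 genes are accounted for; other genes are named from 9 lists where called, with up to 4 per list and the brightest uncalled ones, or as the nearest in pattern. The genes, lists and rules were chosen with earlier results of these data known. Python 3.11.15 and matplotlib 3.10.9 were used for the promoter search and the figures. Alternatives were 2 other filters, 2 normalizations, another prior, array weights, a replicate block, the compared groups alone, 1 probe set per gene, and each array left out.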

Additional observations from a re-analysis of the deposited data

How the results depend on the processing

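Probe sets of the 10 genes were counted again under 20 or 21 alternatives per comparison. With 1 probe set per gene the counts called were 5 for cocaine in mutants (8 in the fit as reported), 4 for cocaine in controls (7), 2 for mutant against control after cocaine (4) and 2 over both treatments (4), because Tiparp and Gadd45b then count once. Without the filter 2 were called for mutant against control after cocaine. Leaving out each array in turn gave 7 to 9 called for cocaine in mutants, 7 to 8 in controls, 7 to 10 averaged over genotypes, 2 to 5 for mutant against control after cocaine (2 without control cocaine replicate 3), 4 to 6 over both treatments, and 0 throughout for the difference of the responses and for mutant against control after saline.

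Of 1644 single values under alternatives, 1575 kept their direction and side of the threshold, 30 lost a call, 12 gained one, 27 uncalled values changed sign, and 0 called values changed sign. Without the filter, 7 calls were lost. Their log2 changes were the same as in the fit as reported, and their SEs were larger. For Btg2 in mutants the SE was 0.278 in place of 0.245. The adjustment also ran over more probe sets. What each of these contributed to the losses was not tested.

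Same-numbered samples did not deviate together: 1 of 18 correlations of their deviations from group means exceeded 0.1 (range -0.14 to 0.12). No strong shared deviation by replicate number was thus seen. Such correlations cannot tell whether same-numbered animals were paired by design. With the replicate number as a block, 7 probe sets were called for cocaine in mutants, 7 in controls, 8 averaged, 0 for the difference, 0 and 4 for genotype after saline and after cocaine, and 4 over both treatments; Btg2 in mutants (adjusted p = 0.0841) and Gadd45g averaged (adjusted p = 0.0552, limma) were not called with it. The background moved by over 1.5 times in places: array weights gave 88 probe sets called for cocaine in controls (50) and 708 for genotype after cocaine (465), and the 6 saline arrays alone gave 152 for genotype after saline (331). Leaving out single arrays gave 128 to 239 for cocaine in mutants (213), 5 to 8 for the difference (8), 216 to 350 for genotype after saline (331) and 253 to 539 after cocaine (465). Signals at or near 4 limit what Btg2, Klf10, Klf4 and Ier2 can show.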

Other observations

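Replicate 3 of the saline-treated mutants, which read highest of its group for 7 of the 8 tested genes by their brightest probe set, was compared with the wider response to cocaine. Among 225 other probe sets called higher with cocaine over both genotypes, it was the highest of the 3 saline-treated mutants for 43.1%, against 29.8% and 27.1% for replicates 1 and 2. Among the saline-treated controls, replicate 1 was highest for 44.4% of these probe sets, a similar share, and for 5 of the 8 genes, a smaller count. After cocaine the largest shares were 51.1% for control replicate 2 and 48.4% for mutant replicate 1. The 225 probe sets were called with these same arrays, so the shares only describe them. The largest single gap was that of Klf10, at 4.96 in mutant saline replicate 3 and 3.35 and 3.47 in replicates 1 and 2.

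The patterns nearest to Ier3 after Dnajb1 were those of Crem, a cAMP-responsive transcription factor gene (RMS difference 0.234), and Taf1a, which works in RNA polymerase I initiation (0.239). Crem read 1.13 with cocaine in mutants and 0.48 in controls, and Taf1a 1.62 in mutants and 0.06 in controls. Both were named after their values were seen.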
